A study of Mus musculus with 14 samples.

Results

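The genes described here encode the junction proteins and surface receptors by which endothelial cells, the cells lining blood vessels, are recognised: Cldn5, Cdh5 and Pecam1 at the junctions between these cells, the VEGF receptors Kdr and Flt1, the angiopoietin-family receptors Tie1 and Tek, and the TGF-beta co-receptor Eng. They were chosen by gene symbol. All 8 genes were on the array, with 10 probe sets, of 8251 genes and 12422 probe sets measured. Cells of dissociated mouse cerebella gave 14 RNA samples, each measured on 1 array. The line was patched heterozygous and kept by crossing to 129X1/SvJ mice, so that the youngest group (patched+/-) also carried the mutation, as did the later groups, named patched mutants. The groups were granule cell precursors (GCP, n = 4) from mice aged 7 days, preneoplastic cells (pretumor, n = 5) from mice aged 6 weeks, and tumor cells (tumor, n = 5) from mice aged 10 to 25 weeks with signs of medulloblastoma, a tumor of the cerebellum. Stage and age cannot be told apart. The cells were collected at the interface of a Percoll step gradient and were not sorted, so each sample could hold vessel cells beside the granule lineage. Whether animals were pooled is not stated, and nothing says that samples came from separate animals: p-values measure only how far these samples scatter, and that scatter may be technical.

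Endothelial cells are held together by tight junctions, of which claudin 5 is the main sealing protein in brain vessels, and by adherens junctions built on VE-cadherin, the product of Cdh5. Their growth is driven by VEGF acting on Kdr (VEGFR2), while Flt1 (VEGFR1) binds the same ligand and largely acts as a trap for it. Angiopoietins act on Tek (Tie2), which pairs with the orphan receptor Tie1, to keep vessels quiet and tight. In the cerebellum vessels grow in during the first weeks after birth, together with the expansion of the granule cell layer.

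The promoters are shown because Cldn5, Cdh5, Kdr and Tie1 were lower together in both later groups than in GCP. The core of the ETS factors, a family with many members in endothelium, is GGAA. It was counted on both strands (GGAA or TTCC, which cannot overlap each other). The window ran from 250 bases before to 50 after the start of each gene (RefSeq, GRCm38.p6). It was held for 6 of the 8 genes, without Cdh5 and Pecam1. The windows of the called genes Cldn5 (chr16:18776597-18776896, plus strand), Tie1 (chr4:118489800-118490099, minus strand) and Kdr (chr5:75978406-75978705, minus strand) are shown 5′ to 3′, with each GGAA or TTCC in capitals.

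Cldn5: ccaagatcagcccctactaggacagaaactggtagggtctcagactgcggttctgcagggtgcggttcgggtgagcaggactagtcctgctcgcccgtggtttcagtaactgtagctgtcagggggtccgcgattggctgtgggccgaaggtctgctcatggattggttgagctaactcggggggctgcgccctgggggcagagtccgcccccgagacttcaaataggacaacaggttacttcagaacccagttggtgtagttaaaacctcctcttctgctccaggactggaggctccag

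Tie1: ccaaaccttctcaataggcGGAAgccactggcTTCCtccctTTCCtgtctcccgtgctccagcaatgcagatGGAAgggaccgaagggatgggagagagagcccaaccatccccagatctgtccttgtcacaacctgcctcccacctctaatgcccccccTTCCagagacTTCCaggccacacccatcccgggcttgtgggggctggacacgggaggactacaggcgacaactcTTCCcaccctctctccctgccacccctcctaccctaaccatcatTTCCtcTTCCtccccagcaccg

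Kdr: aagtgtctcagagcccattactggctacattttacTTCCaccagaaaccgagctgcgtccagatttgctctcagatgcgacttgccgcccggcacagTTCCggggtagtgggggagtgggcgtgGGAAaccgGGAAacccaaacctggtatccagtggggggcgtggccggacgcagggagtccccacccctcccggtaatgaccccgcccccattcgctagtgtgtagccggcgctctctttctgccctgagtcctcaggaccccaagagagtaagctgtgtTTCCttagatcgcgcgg

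The Tie1 window holds 9 copies and that of Kdr 5, against a median of 3 over 32851 promoters, of which 96.0% hold at least 1; 1.59% hold 9 or more and 28.6% hold 5 or more. The Cldn5 window holds 0, as do 4.02% of all promoters. The windows of Flt1 and Eng hold 4 each and that of Tek 2. The genes that were called thus ranged from 0 to 9 copies, and those not called had 4. These counts describe letters in a short window and say nothing of binding.

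Values are log2 intensities. Most probe sets of the table lie in a narrow band of low intensities, and an intensity below 16 (4 on the log2 scale) is called low here; 70.5% of all values were. Values were floored at the 10th percentile, 1.30 on the log2 scale. Array medians differed by at most 0.094 log2 units, and between 29.2% and 29.8% of probe sets reached 16. Over all probe sets the GCP arrays correlated more closely within the pairs 1 and 2 and 3 and 4 (0.998 each) than between them (0.994 to 0.996), so calls were also made with each pair averaged. Zic1, a marker of the granule lineage, had a level of 12.74 ± 0.11 among GCP arrays, 12.59 ± 0.16 among pretumor arrays and 12.64 ± 0.21 among tumor arrays (SD). The probe set of Atoh1, another defining marker, was low in every group, at 1.95 ± 0.10, 1.90 ± 0.20 and 2.01 ± 0.17. The 3' to 5' log2 ratio of Gapdh, a sign of RNA quality, ran from -0.018 to 0.56 in GCP, from 0.0056 to 1.08 in pretumor and from 0.15 to 0.42 in tumor samples. Within GCP it split by the pairs named above, at 0.46 and 0.56 in GCP 1 and 2 and at -0.018 in both GCP 3 and GCP 4. The ratio of actin ran from 3.96 to 4.27 in GCP, from 4.13 to 4.87 in pretumor and from 3.93 to 4.85 in tumor samples, a large excess of 3' signal in every group. For actin the GCP pairs overlapped, at 4.02 and 4.27 in GCP 1 and 2 and at 3.96 and 4.18 in GCP 3 and 4. The part of RNA quality in the results was not tested.

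Of the 8 endothelial genes, 4 were called lower in pretumor samples and 5 in tumor samples, both against GCP. By probe set, limma called 5 of the 10 probe sets lower in pretumor samples (Cldn5, Cdh5, Kdr and both of Tie1) and 0 higher, while 2.69% of all probe sets were called lower and 1.67% higher. In tumor samples 6 of the 10 were lower (the same genes and Tek) and 0 were higher, against 3.19% and 1.41% of all probe sets. Between tumor and pretumor samples 0 of the 10 were called, against 0.789% of all probe sets called lower and 0.209% higher. An unadjusted p under 0.05 held for 3 of the 10 (Cldn5, Flt1 98452_at and Tek). The share of all probe sets with such a p was not counted. The median difference over the 10 probe sets was -0.33 in pretumor and -0.51 in tumor samples relative to GCP, where the median over all probe sets was -0.0052 and 0.0024. In the low band itself, 8594 probe sets, the medians were -0.0028 and 0.0027, and 1.58% and 1.72% were called lower. With the GCP pairs averaged, 3 probe sets were called lower in pretumor samples (Cdh5, Kdr and Tie1 161184_f_at) and 6 in tumor samples. In such bulk samples fewer endothelial cells and less RNA per endothelial cell cannot be told apart.

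The probe sets were dim. Of the 40 member values on GCP arrays 9 reached 16, all of them from Cldn5, Eng and 1 array for Tie1. On pretumor arrays 6 of 50 did, 5 from Cldn5 and 1 from Eng, and on tumor arrays 0 of 50. At the floor lay 0 of the GCP values, 3 of the pretumor and 10 of the tumor values, so a further fall at those arrays could not be measured.

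**Figure D1:**
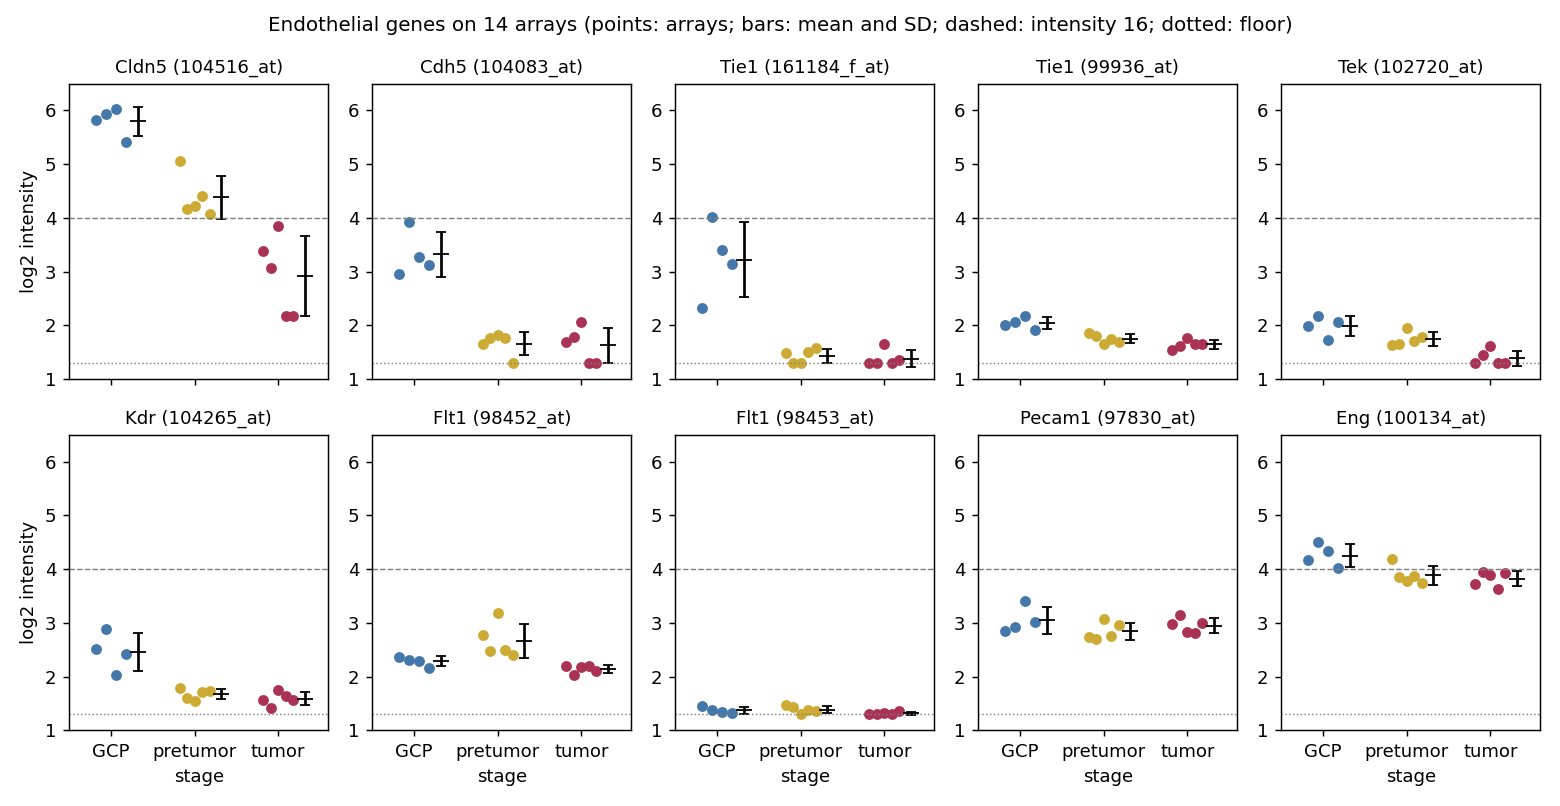
Log2 intensity of the 10 endothelial probe sets (vertical axis) at each stage (horizontal axis); points are arrays (GCP n = 4, pretumor n = 5, tumor n = 5), black bars the mean and SD, the dashed line an intensity of 16 and the dotted line the floor. Cldn5 descends in steps over the stages, and Pecam1 overlaps throughout. Cdh5 and Tie1 161184_f_at are higher on the GCP arrays than on all later arrays, yet low there except on 1 array for Tie1.

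Cldn5 (104516_at), the tight junction claudin of brain endothelium, stood at 5.82, 5.93, 6.03 and 5.41 on the GCP arrays, at 5.07, 4.17, 4.22, 4.40 and 4.08 on the pretumor arrays and at 3.38, 3.06, 3.84, 2.17 and 2.18 on the tumor arrays. The 3 groups did not overlap, with every pretumor array between the GCP and the tumor arrays. Cldn5 fell 2.66-fold in pretumor samples, at 4.39 ± 0.40 against 5.80 ± 0.27 in GCP (difference -1.41, SE 0.34, adjusted p = 0.0377). This call ended without any 1 of GCP 1 to GCP 4 or of pretumor 2 to pretumor 5 (adjusted p = 0.0605 to 0.113), with GCP pairs averaged (adjusted p = 0.241) and without both pretumor 3 and tumor 2 (adjusted p = 0.085); over 24 alternatives its adjusted p ran from 0.00353 to 0.241. In tumor samples it fell at least 3.48-fold, at 2.93 ± 0.74 against 5.80 ± 0.27 in GCP (difference -2.87, SE 0.34, adjusted p = 0.000453), a call that held in 24 of 24 alternatives. Tumor samples were 1.46 lower than pretumor samples without passing the test (adjusted p = 0.06, 95% interval -2.16 to -0.76). That difference passed without tumor 3 (adjusted p = 0.0197), with dim probe sets left out (adjusted p = 0.016) and with a trend in the variance (adjusted p = 0.0397), within a range of 0.016 to 1.0 over the alternatives.

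Cdh5 (104083_at) encodes VE-cadherin, the adhesion molecule of endothelial adherens junctions. Its levels were 2.96, 3.93, 3.27 and 3.12 in GCP samples, 1.66, 1.76, 1.82, 1.76 and 1.30 in pretumor samples and 1.69, 1.79, 2.07, 1.30 and 1.30 in tumor samples. Every GCP array lay above every later array, while pretumor and tumor arrays overlapped. All of these values are low, so no fold is given. Cdh5 fell by 1.66 in pretumor samples, at 1.66 ± 0.21 against 3.32 ± 0.42 in GCP (SE 0.21, adjusted p = 0.000993). It fell by 1.69 in tumor samples, at 1.63 ± 0.33 against 3.32 ± 0.42 in GCP (adjusted p = 0.000603). Both calls ended with a floor at 16, at which the gene is constant, and held in the other 22 alternatives that tested it. Tumor and pretumor samples differed by -0.03 (adjusted p = 1.0, 95% interval -0.46 to 0.40).

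Pecam1 (97830_at), an adhesion molecule of endothelial junctions that platelets and leukocytes also carry, was called in no comparison. It stood at 2.84, 2.92, 3.41 and 3.01 in GCP samples, at 2.73, 2.71, 3.06, 2.76 and 2.95 in pretumor samples and at 2.97, 3.14, 2.83, 2.80 and 3.00 in tumor samples. The 3 groups overlapped. The difference from GCP was -0.20 in pretumor samples (adjusted p = 0.487, 95% interval -0.46 to 0.06) and -0.09 in tumor samples (adjusted p = 0.848, 95% interval -0.35 to 0.16).

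Of the VEGF receptors, Kdr was called lower in both later groups and Flt1 in neither; the difference between the receptors was not tested. Kdr (104265_at), the main signalling receptor, stood at 2.51, 2.89, 2.03 and 2.42 in GCP samples, at 1.78, 1.61, 1.55, 1.71 and 1.73 in pretumor samples and at 1.57, 1.42, 1.75, 1.63 and 1.57 in tumor samples. Each GCP array lay above all later arrays, which overlapped each other. Kdr fell by 0.79 in pretumor samples, at 1.67 ± 0.09 against 2.46 ± 0.35 in GCP (adjusted p = 0.00568). It fell by 0.87 in tumor samples, at 1.59 ± 0.12 against 2.46 ± 0.35 in GCP (adjusted p = 0.00263). Both calls ended with a floor at 16 and held in the other 22 alternatives that tested it.

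Flt1, the decoy-like VEGF receptor, has a pair of probe sets. The brighter, 98452_at, stood at 2.37, 2.31, 2.30 and 2.16 in GCP samples, at 2.77, 2.47, 3.18, 2.50 and 2.39 in pretumor samples and at 2.20, 2.03, 2.17, 2.19 and 2.09 in tumor samples. Here the pretumor arrays lay above both other groups, and pretumor 3 was the highest. Pretumor minus GCP was 0.38 (adjusted p = 0.159, 95% interval 0.09 to 0.67) and tumor minus pretumor -0.53 (adjusted p = 0.086, 95% interval -0.80 to -0.25), neither of which passed the test. Without pretumor 3 the second of these passed, at -0.40 (adjusted p = 0.0287). The other probe set, 98453_at, lay near the floor on every array, between 1.30 and 1.47, and was called in no comparison (adjusted p of 0.506 to 0.969).

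Both probe sets of Tie1, the orphan partner of Tek, were lower at the later stages, by unequal sizes. Tie1 161184_f_at stood at 2.33, 4.01, 3.40 and 3.15 in GCP samples, at 1.49, 1.30, 1.30, 1.51 and 1.57 in pretumor samples and at 1.30, 1.30, 1.66, 1.30 and 1.36 in tumor samples. The GCP arrays were spread widely but lay above all others. Tie1 161184_f_at fell by 1.79 in pretumor samples, at 1.43 ± 0.13 against 3.22 ± 0.70 in GCP (adjusted p = 0.00184). It fell by 1.84 in tumor samples, at 1.38 ± 0.16 against 3.22 ± 0.70 in GCP (adjusted p = 0.00116). The suffix of this probe set marks probes that may match related transcripts, so its share from Tie1 alone is uncertain. Both calls ended with a floor at 16 and held in the other 22 alternatives that tested it.

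Tie1 99936_at stood at 2.01, 2.07, 2.17 and 1.92 in GCP samples, at 1.86, 1.79, 1.66, 1.75 and 1.69 in pretumor samples and at 1.55, 1.62, 1.77, 1.65 and 1.65 in tumor samples. It fell by 0.29 in pretumor samples (1.75 ± 0.08 against 2.04 ± 0.11 in GCP, adjusted p = 0.0141) and by 0.40 in tumor samples (1.65 ± 0.08 against 2.04 ± 0.11 in GCP, adjusted p = 0.00203). GCP did not overlap the later stages on either probe set. The pretumor call of 99936_at ended with GCP pairs averaged (adjusted p = 0.0577), and both of its calls ended with a floor at 16.

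Tek (102720_at), the angiopoietin receptor, stood at 1.98, 2.18, 1.74 and 2.06 in GCP samples, at 1.63, 1.66, 1.95, 1.71 and 1.79 in pretumor samples and at 1.31, 1.44, 1.62, 1.30 and 1.30 in tumor samples. Tumor arrays lay below both other groups, which overlapped. Tek fell by 0.60 in tumor samples, at 1.39 ± 0.14 against 1.99 ± 0.19 in GCP (adjusted p = 0.00448). The pretumor samples differed from GCP by -0.24 (adjusted p = 0.246, 95% interval -0.46 to -0.03), and tumor from pretumor samples by -0.36 (adjusted p = 0.124, 95% interval -0.56 to -0.15). The tumor call ended with a floor at 16 and held in the other 22 alternatives that tested it.

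Eng (100134_at) encodes endoglin, which endothelial cells use to bind ligands of the TGF-beta family. It stood at 4.16, 4.50, 4.33 and 4.02 in GCP samples, at 4.19, 3.85, 3.78, 3.87 and 3.73 in pretumor samples and at 3.72, 3.95, 3.89, 3.64 and 3.93 in tumor samples. GCP arrays lay above all tumor arrays, and 1 pretumor array, pretumor 1, lay among the GCP arrays. Neither difference from GCP passed the test, -0.37 in pretumor (adjusted p = 0.0997, 95% interval -0.62 to -0.12) and -0.43 in tumor samples (adjusted p = 0.0551, 95% interval -0.68 to -0.18). Leaving out pretumor 1 brought both past the threshold (adjusted p = 0.0355 and 0.0303), as did leaving out GCP 4 (adjusted p = 0.04) or dim probe sets (adjusted p = 0.041) for the tumor samples. The difference of tumor from pretumor samples was -0.06 (adjusted p = 0.901).

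**Figure D2:**
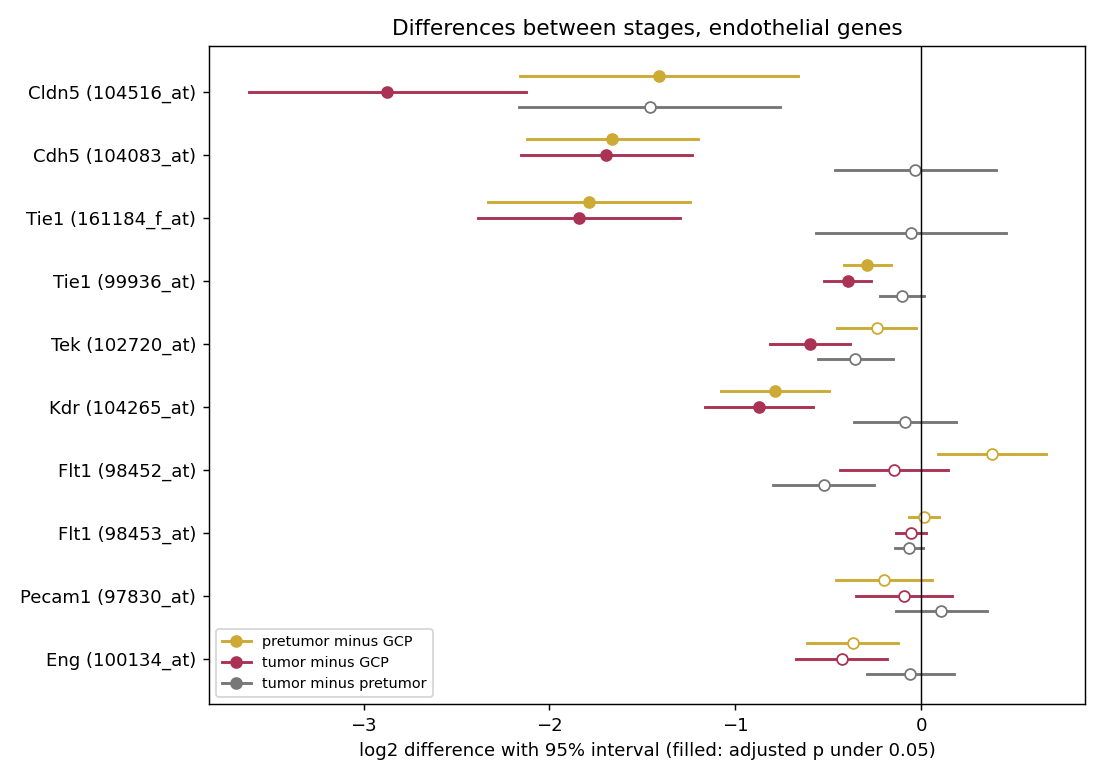
Log2 difference between stages (horizontal axis) for each endothelial probe set, as point and 95% interval, with filled points for adjusted p under 0.05. The differences of pretumor and of tumor samples from GCP lie side by side for Cdh5, Kdr and Tie1, while for Cldn5 the tumor samples lie a further 1.46 below the pretumor samples, which missed the threshold (adjusted p = 0.06).

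The order of the levels took several forms. For Cdh5, Kdr and Tie1 161184_f_at the GCP level was above those of pretumor and tumor samples, which did not differ beyond their spread. For Cldn5 the order was GCP, pretumor, tumor, with the last step short of the threshold. For Tek tumor samples were lowest and GCP and pretumor samples overlapped. Flt1 98452_at was highest in pretumor samples without passing the test. The comparisons of pretumor and of tumor samples with GCP share the GCP arrays, so their likeness is not independent.

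Other genes of the vessel wall were read from lists. Against GCP, 3.25% of all 8251 genes were called lower and 1.99% higher in pretumor samples, and 3.93% and 1.7% in tumor samples; between tumor and pretumor samples the shares were 0.957% and 0.133%. The vascular basement membrane list, the matrix on which endothelium rests, had 5 of 14 genes lower in pretumor and 7 of 14 lower in tumor samples, with 0 higher in either. Its median difference was -0.58 in pretumor and -0.55 in tumor samples (all genes -0.013 and 0.0029). Nid2, which encodes a nidogen linking laminin to collagen, fell at least 3.32-fold in both, to 1.59 ± 0.31 in pretumor and 1.34 ± 0.09 in tumor samples, against 5.73 ± 0.19 in GCP (adjusted p = 2.51e-08 and 1.26e-08). Col4a1, a collagen IV chain, fell 3.84-fold in pretumor samples (adjusted p = 0.00297). Sparcl1, a matrix protein that astrocytes and vessels secrete, fell 4.63-fold in tumor samples (adjusted p = 0.00542). With GCP pairs averaged 5 genes were lower in pretumor and 4 in tumor samples, and with a floor at 16 there were 2 and 3. The summed intensity of the list ran from 1684 to 2485 in pretumor samples, against 3622 to 5203 in GCP. The tumor arrays were split, at 2760 in tumor 3 and 2339 in tumor 2 and at 722 to 994 on the other tumor arrays, all below GCP. Sparc and Sparcl1 were the brightest genes of the list (10.87 and 10.83 in GCP), so the sum mostly follows them. Sparc was called in neither pretumor nor tumor samples against GCP (adjusted p = 0.562 and 0.193), and its SD among tumor arrays was 1.62.

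Of 30 other endothelial surface and secreted genes, 3 were lower in pretumor samples (Cd93, Cd34 and Icam2), 5 were lower in tumor samples (those and Itm2a and Vwf) and 0 were higher in either. The median difference was -0.09 and -0.13, and 23 of the 30 were low in every group. Cd93, a surface glycoprotein of endothelial and myeloid cells, fell at least 2.64-fold, to 2.51 ± 0.25 in pretumor (adjusted p = 0.000718) and 2.80 ± 0.84 in tumor samples (adjusted p = 0.00115), against 5.40 ± 0.19 in GCP. Itm2a, a membrane protein of brain vessels, fell 7.81-fold in tumor samples, at 5.79 ± 1.72 against 8.75 ± 0.63 in GCP (adjusted p = 0.0371). Averaging the GCP pairs gave 1 gene lower in pretumor and 2 in tumor samples, and a floor at 16 gave 1 in each.

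Among 12 ligands and co-receptors, 2 were lower in pretumor samples, and in tumor samples 1 was lower and 1 higher. Vegfc, a ligand of Kdr and of the lymphatic receptor Flt4, fell at least 5.31-fold, to 3.50 ± 0.13 in pretumor (adjusted p = 0.000393) and 2.93 ± 0.64 in tumor samples (adjusted p = 7.89e-05), against 6.41 ± 0.57 in GCP. Pgf, a ligand of Flt1, fell by 0.39 within the low band in pretumor samples (adjusted p = 0.00706). Tgfb2, a TGF-beta ligand, rose 2.08-fold in tumor samples, at 7.85 ± 0.51 against 6.79 ± 0.13 in GCP (adjusted p = 0.0236), a call that ended with GCP pairs averaged, where 0 ligands were higher. In pretumor samples 1 ligand in place of 2 was lower with GCP pairs averaged, and likewise with a floor at 16, at which Pgf is constant. In tumor samples 0 ligands were higher with a floor at 16, so the call of Tgfb2 ended there too. Vegfa, the main ligand of Kdr, was low throughout, at 1.80 ± 0.09 in pretumor and 2.00 ± 0.20 in tumor samples against 1.70 ± 0.07 in GCP (adjusted p = 0.707 and 0.0863); it was chosen after its values were seen.

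The 12 junction partners did not share a direction. Gja4, a connexin of arterial endothelium, fell by 0.22 in pretumor and by 0.16 in tumor samples within the low band (adjusted p = 0.00935 and 0.0448). F11r, the junctional adhesion molecule A, fell by 0.80 in tumor samples against GCP (adjusted p = 0.00122) and by 0.83 against pretumor samples (adjusted p = 0.00228), also in the low band. Jam3, another junctional adhesion molecule, rose 2.17-fold in tumor samples, at 5.66 ± 0.37 against 4.55 ± 0.37 in GCP (adjusted p = 0.0302). With GCP pairs averaged 0 of the 12 were called in pretumor samples, so that the call of Gja4 ended there, and 1 was lower and 0 higher in tumor samples. Without pretumor 3 and tumor 2, 2 were higher and 1 lower in pretumor samples, and 1 higher and 1 lower in tumor samples. With a floor at 16, 0 of the 12 were called in any comparison, so the call of Jam3 ended there too.

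Of 19 endothelial transcription factors, 2 were lower and 1 higher in pretumor samples, and 3 were lower and 2 higher in tumor samples. Sox7 and Lyl1, factors of endothelial and blood lineages, fell by 0.32 each in pretumor samples, within the low band (adjusted p = 0.0042 and 0.0123). Lmo2, a partner of Lyl1 in vessel and blood formation, fell 1.88-fold in tumor samples, at 4.55 ± 0.24 against 5.46 ± 0.24 in GCP (adjusted p = 0.0123). Foxf2, a forkhead factor of brain pericytes that was placed in this list, rose at least 3.09-fold in tumor samples, at 5.63 ± 0.54 against 1.67 ± 0.24 in GCP (adjusted p = 1.27e-05). It was also the 1 gene higher in pretumor samples, at 4.40 ± 0.44 (adjusted p = 0.00033). Ets2, an ETS factor found in many cell types, rose at least 1.73-fold in tumor samples (adjusted p = 0.0275). With GCP pairs averaged the tumor samples had 2 lower and 1 higher, and the pretumor counts stayed at 2 and 1. With a floor at 16, 1 was lower and 1 higher in tumor samples, and 0 were called in pretumor samples. Of 16 receptors and effectors of TGF-beta and BMP, the pathway in which Eng acts, limma called 0 in each comparison, with an unadjusted p under 0.05 for 2 in pretumor against GCP, 0 in tumor against GCP and 1 in tumor against pretumor. Their brightest member, Smad1, had a level of 9.40 ± 0.23 among pretumor and 9.64 ± 0.35 among tumor arrays, against 9.38 ± 0.17 among GCP arrays.

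The list of blood-brain barrier transporters was mixed, with 1 of 13 genes lower and 2 higher in pretumor samples and 3 lower and 0 higher in tumor samples. Slc38a5, an amino acid transporter, fell at least 1.26-fold in both (adjusted p = 0.00258 and 0.00115). Bsg, a glycoprotein that escorts monocarboxylate transporters, fell 1.77-fold in tumor samples (adjusted p = 0.032). Abcb1a, the drug efflux pump of brain endothelium, rose by 0.46 in pretumor samples within the low band (adjusted p = 0.01), opposite to Cldn5. The other gene that rose, Ptgds, makes prostaglandin D2 in meninges and is no transporter; it stood at 8.82 ± 0.28 in pretumor samples against 5.43 ± 0.87 in GCP (adjusted p = 0.00159). With GCP pairs averaged 1 gene of this list was lower and 1 higher in pretumor samples and 2 were lower in tumor samples. With a floor at 16, 0 were lower and 1 higher in pretumor samples, and 0 were called in tumor samples against GCP. The pericyte and smooth muscle list, all 13 of it low, had 1 gene lower in each comparison with GCP, Notch3, the receptor of mural cells (by 0.43 in pretumor and by 0.41 in tumor samples, adjusted p = 0.0157 and 0.021). Both of these calls ended with GCP pairs averaged and with a floor at 16, in each of which 0 of the 13 were called.

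**Figure D3:**
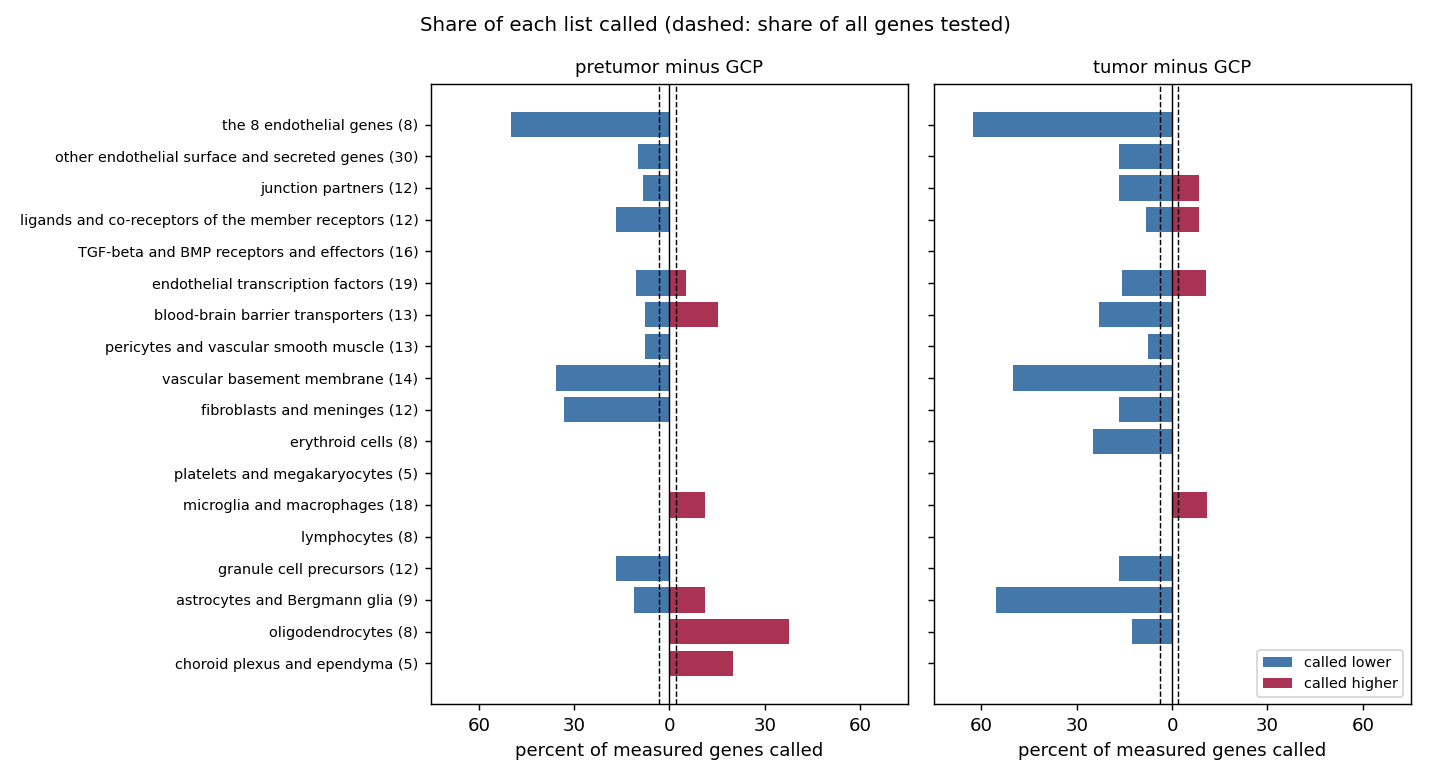
Percent of measured genes called lower (left of 0) and higher (right of 0) in pretumor and in tumor samples against GCP, for the 8 endothelial genes and each list, with the number measured in brackets; dashed lines give the share of all 8251 genes. Only lower bars appear in both panels for the 8 genes and the other endothelial, basement membrane, pericyte, fibroblast and granule cell precursor lists.

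Lists of other cells moved at the same time, and their part in the endothelial results was not tested. The summed intensity of 9 astrocyte and Bergmann glia genes ran from 1376 to 2145 in pretumor and from 516 to 1983 in tumor samples, against 9628 to 13199 in GCP, with 1 lower and 1 higher in pretumor and 5 lower in tumor samples (3 with GCP pairs averaged). Fabp7, a fatty acid binding protein of Bergmann glia, fell 10.96-fold in pretumor and 14.3-fold in tumor samples (adjusted p = 0.000389 and 0.000108). At 13.24 ± 0.22 in GCP, Fabp7 made up most of the GCP sum of this list. The 8 erythroid genes summed to 760 to 3431 in pretumor and 29.6 to 403 in tumor samples, against 1936 to 4387 in GCP, with 0 called in pretumor samples and 2 lower in tumor samples, both of which ended with GCP pairs averaged. Of the 8, 6 were low in every group. The fibroblast and meninges list (4 of 12 lower in pretumor and 2 in tumor samples) summed to 523 to 733 and 386 to 1122, against 1055 to 1616 in GCP. Its counts were 1 and 1 with GCP pairs averaged, and 2 and 1 without pretumor 3 and tumor 2. The summed intensity of 18 microglia and macrophage genes went the other way. It ran from 1053 to 1668 in pretumor and from 800 to 2336 in tumor samples, against 319 to 697 in GCP. In each, 2 genes were called higher (1 with GCP pairs averaged), Ctss and Lyz2, which made up most of the rise. In pretumor and tumor samples Ctss stood at 9.59 and 9.13 (7.40 in GCP) and Lyz2 at 7.25 and 8.46 (4.48 in GCP). The other 16 were not called, and the median difference of the list was 0.11 and 0.17. The 5 platelet and the 8 lymphocyte genes, cells that can carry Pecam1, were all low and limma called 0 of them against GCP, with an unadjusted p under 0.05 for 1 platelet gene in pretumor samples and 0 others; the platelet sum ran from 15.3 to 16.2 in pretumor and from 15.99 to 16.54 in tumor samples, against 15.7 to 16.4 in GCP, and the lymphocyte sum from 23.2 to 25.9 and from 24.3 to 25.6, against 24.6 to 26.0 in GCP.

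The oligodendrocyte list had 3 of 8 genes higher in pretumor and 1 lower in tumor samples, the choroid plexus list 1 of 5 higher in pretumor and 0 called in tumor samples, both against GCP. With GCP pairs averaged 1 oligodendrocyte gene was higher in pretumor samples, as with a floor at 16, and the other counts were unchanged. The choroid plexus genes summed to 5149 to 14525 in pretumor and 21.6 to 1157 in tumor samples, against 626 to 3213 in GCP. This sum mostly follows Ttr, at 12.92 ± 0.63 in pretumor samples. Ttr was not called in pretumor against GCP, tumor against GCP or tumor against pretumor (adjusted p = 0.544, 0.186 and 0.0612). The granule cell precursor list had 2 of 12 genes lower in each, Pax6 and Neurod1, transcription factors of the granule lineage. With GCP pairs averaged 0 were lower in pretumor and 1 in tumor samples. Against pretumor samples, tumor samples had 3 astrocyte, 4 oligodendrocyte, 2 choroid plexus and 1 junction partner genes lower. Of the transporter list 3 genes were lower (Ptgds, Bsg and Abcb1a). In these lists 0 were higher, and limma called 0 in the other lists, where 0 to 6 genes a list had an unadjusted p under 0.05. With GCP pairs averaged the lower counts were 2 astrocyte, 3 oligodendrocyte, 1 choroid plexus, 2 transporter-list and 1 junction partner genes. With a floor at 16 these counts were 1, 2, 1, 1 and 0.

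The genes whose profile was closest to Cldn5 and Eng, the members that reached 16 in a group mean, were found by the root mean square difference between profiles centred on their own mean over 14 arrays. Closest to Cldn5 was Gja1, the connexin of astrocyte gap junctions, at 0.53 log2 units, followed by Lxn, a carboxypeptidase inhibitor, and Itih5, a secreted matrix-binding protein, both at 0.57; Cldn5 itself varied by 1.24 about its mean. Closest to Eng were Evl, an actin regulator, at 0.13, Agrn, the basement membrane proteoglycan agrin, at 0.14, and Vwf, the von Willebrand factor of endothelium, at 0.14, where Eng varied by 0.24. Vwf was at 1.95 ± 0.11 in pretumor and 1.88 ± 0.11 in tumor samples, against 2.28 ± 0.19 in GCP, and of these differences the second passed the test (adjusted p = 0.0276).

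**Figure D4:**
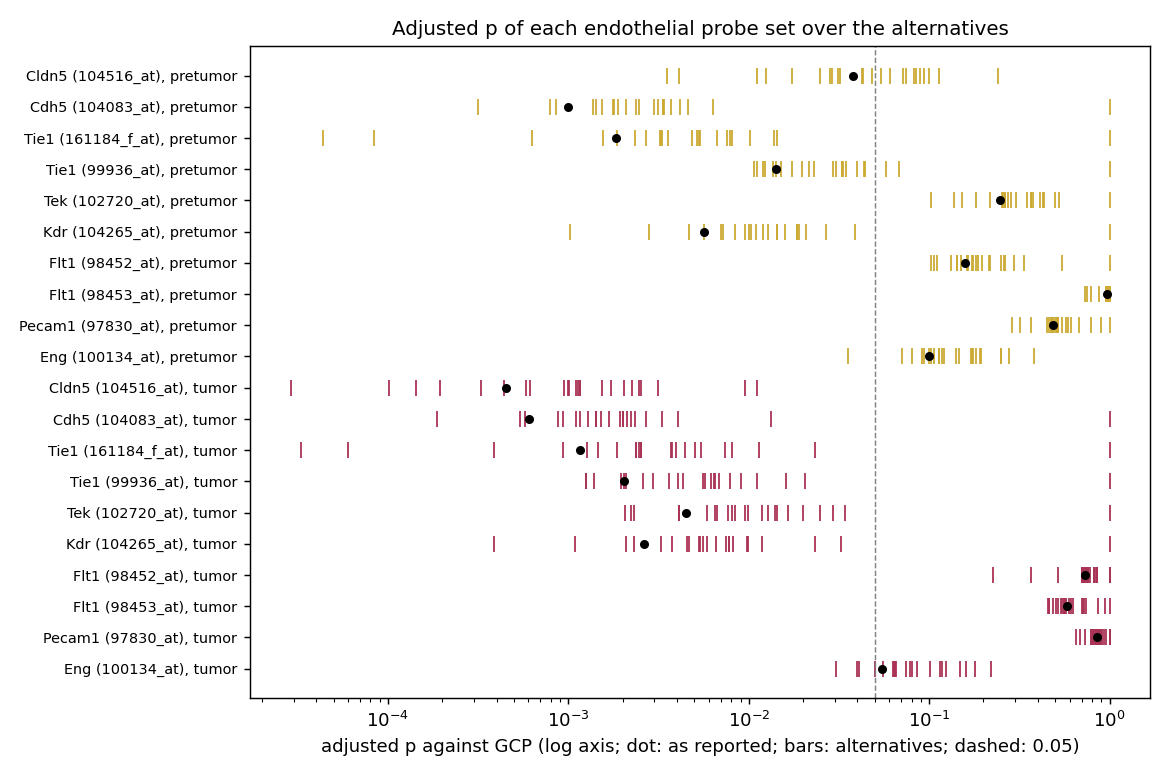
Adjusted p of each endothelial probe set against GCP (horizontal log axis) as reported (dots) and under each alternative (vertical marks), for pretumor samples in the upper rows and tumor samples in the lower rows; the dashed line is 0.05. For the low probe sets that were called, the mark at 1 is the floor at 16, and the marks of Cldn5 in pretumor samples lie on both sides of the line.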

How the data were processed

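RNA of 14 samples was measured on 1 expression array each. The authors deposited linear intensity values, 1 for each probe set of each array. The sources used here do not give the summarisation or normalisation behind them. The table has 12488 probe sets; 66 control probe sets were left out. Array medians lay within 0.2 log2 units, so no normalisation was added. Intensities were floored at 2.45 (10th percentile) and taken to log2. limma 3.58.1 (R 4.3.3) fitted 3 group means to the 12422 probe sets (11 residual degrees of freedom, 0.83 prior), with two-sided p-values adjusted by Benjamini-Hochberg; called means an adjusted p under 0.05. The fit was tested on simulated data.

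Symbols came from the platform annotation: 10833 probe sets had 1 symbol, 396 several and 1193 none, and 10817 of the single ones were in the RefSeq table (GRCm38.p6). A gene in a list is its probe set with the highest mean. A summed intensity adds linear values, so the brightest genes of a list weigh most in it. Folds against a group mean below 16 are bounds against 16. The genes to name were all members, up to 3 called genes per list with the largest change or the brightest where none was called, and the 3 closest profiles. Members and lists were chosen with earlier results of these data known. Alternatives were another floor, a pseudocount, quantile normalisation, a filter on dim probe sets, another variance model, 2 groups alone, replicate numbers as a block and each array left out. The number of arrays limits the precision.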

Additional observations from a re-analysis of the deposited data

Results flagged for a closer look

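In 12 of 192 groups of a named gene's arrays, 1 array stood far from the rest by Dixon's test, which flags about 1 in 20 by chance. Among the endothelial genes this held for 1 of 30 groups, Tie1 161184_f_at, at 1.66 in tumor 3 against 1.30 to 1.36 on the other tumor arrays. Tumor 3 also stood above its group for Col1a2 (2.86), Col3a1 (3.98), Postn (6.07) and Lmo2 (4.96). In tumor 2, Nid2 was high at 1.51 with the others at the floor, and Neurod1 (10.78) and Slc16a1 (1.96) were low. Pax6 was high in tumor 1 (8.90) and Mbp low in tumor 5 (4.87). In GCP 3, Icam2 (1.85) and Notch3 (2.30) were low.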

How the results depend on the processing

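Over 24 alternatives, 22 planned and 2 chosen after seeing the data (GCP pairs averaged; pretumor 3 and tumor 2 left out together), 656 of 696 values of member probe sets kept direction and side of the threshold, 22 lost a call, 8 gained one and 10 turned sign. Except where the setting itself shows it, the cause was not tested. Probe sets called, 541 in pretumor against GCP, 571 in tumor against GCP and 124 in tumor against pretumor, became 194, 232 and 32 with a floor at 16 (at which low probe sets are constant), 168, 198 and 69 with GCP pairs averaged, and 331 to 624, 338 to 709 and 70 to 148 without 1 array; the lowest were without GCP 4, without GCP 4, and without pretumor 2 or tumor 4 (72 without pretumor 1). The compared groups alone gave 335 in tumor against GCP and 50 in tumor against pretumor. Member probe sets called, 5, 6 and 0, became 1, 1 and 0 with a floor at 16 and 1, 2 and 1 of the 2 testable with dim probe sets left out. In pretumor against GCP there were 3 with GCP pairs averaged. In tumor against pretumor there was 1 with a variance trend, and 0 to 1 without 1 array, 1 being without pretumor 3 or tumor 3. Without 1 array 4 to 6 members were called in pretumor and 6 to 7 in tumor samples against GCP. Replicate numbers do not pair the samples (correlations of same-numbered deviations from -0.32 to 0.51). With these numbers as a block, 3 member probe sets were called in pretumor against GCP (Cldn5 and Tie1 99936_at lost their calls, adjusted p = 0.0544 and 0.0678), and 76 of all probe sets in tumor against pretumor. The sign turned only in differences near 0: Flt1 98453_at in pretumor against GCP (-0.017 with a floor at the 5th percentile, -0.0020 with a pseudocount of 16, -0.0091 to 0.040 without 1 array), Pecam1 in tumor against GCP (-0.16 to 0.027), and Cdh5 (-0.14 to 0.051) and Eng (-0.097 to 0.017) in tumor against pretumor. Signal near background limits all members, Cldn5 among them in tumor samples, where its folds are bounds.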

Other observations

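Among the tumor arrays, tumor 3 held the highest value for 6 of the 10 endothelial probe sets, while tumor 4 held it for 0 and tumor 5 for 1. Other groups had leading arrays too, GCP 2 for 5 of the 10, pretumor 1 for 5 and pretumor 3 for 4. The share of all probe sets with their highest tumor value in tumor 3 was not counted. The summed intensity of the fibroblast and meninges list was 1122 in tumor 3 and 386 to 586 on the other tumor arrays. The pericyte and smooth muscle list summed to 129 in tumor 3 and 43.6 to 72.3 on the others. The vascular basement membrane list, whose brightest genes were Sparc and Sparcl1, summed to 2760 in tumor 3 and 2339 in tumor 2, with 722 to 994 on the other tumor arrays. Tumor 3 also had the highest tumor sum of the microglia (2336), TGF-beta and BMP (1991), transporter (3407), ligand (418), transcription factor (218) and other endothelial (738) lists. The erythroid sum did not follow, at 38.0 in tumor 3 and 29.6 to 403 on the others. Another tumor array was also highest for the junction partner, granule cell precursor, astrocyte, oligodendrocyte, choroid plexus, platelet and lymphocyte lists. These counts were made after the values were seen, and no test was run.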
